A study of Mus musculus with 8 samples.

Results

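The keratin and keratin-associated protein genes of the mouse were followed through replication timing profiles of embryonic stem cells with and without auxin-induced loss of CTCF. They were taken as every autosomal protein-coding gene of mm10 whose symbol is Krt followed by a number or begins with Krtap, and 109 of the 21074 protein-coding genes with a timing value met this rule. All 109 such genes in the annotation had a value. Of these, 50 lie on chromosome 11 (99232761 to 100269951), 26 on chromosome 15 (101348315 to 102032026) and 24 on chromosome 16 (88610709 to 89571183), and a further 5 lie on chromosome 7, 3 on chromosome 10 and 1 on chromosome 1. The choice of genes used symbols alone and no timing value.

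The cells were E14Tg2a mouse embryonic stem cells, a male line of 129/Ola background, and in both groups CTCF carried an auxin-inducible degron. CTCF is a DNA-binding zinc finger protein that, with cohesin, anchors chromatin loops. For 2 days the auxin group was kept in medium with 500 µM of the auxin indole-3-acetic acid, and the control group in medium without it, with 2 replicates each. No cells lacking the degron but given auxin were analysed here, so effects of auxin itself and of CTCF loss cannot be told apart. The labels do not say whether replicates came from separate cultures or clones, so a p-value measures only the spread between these profiles, which may be technical. Each profile joins 2 libraries, from BrdU-labelled DNA of cells sorted into early and late S phase after a 2 hour pulse. The deposited value is a timing score per 6-kb window, higher where a locus replicates earlier: all 63 regions the authors list as early to late scored lower with auxin, and all 22 listed as late to early scored higher. How the score was calculated, and on which log base, is not stated in the labels or headers, and read depth is unknown. Expression was not analysed here, so the labelled cell type was not checked against marker genes.

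Keratins are the intermediate filament proteins of epithelia. A type I (acidic) keratin pairs with a type II (basic) keratin to form a filament, and mouse type I genes lie together on chromosome 11 and type II genes on chromosome 15, apart from Krt18, a type I gene that lies beside the type II gene Krt8. Keratin-associated proteins are small proteins that cross-link the keratin filaments of the hair shaft, and their genes are short, in tandem arrays. Krt8 and Krt18 form the filaments of simple epithelia and are the keratins of the early embryo, whereas epidermal and hair keratins are made only after differentiation. Early replication generally goes with open, active chromatin and late replication with silent chromatin.

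Promoter sequences of 5 members are shown because their loci span most of the range of timing described below, from the latest gene to 1 of the early genes at a cluster's end. They are the 150 bases before the annotated start from RefSeq, assembly GRCm38.p6, 5′ to 3′ on the gene's strand. Capitals mark the letters TATAAA, the core of a TATA box, and every CG dinucleotide. They stand for Krtap22-2, a hair keratin-associated gene with the lowest control score of all members (chr16:89010760-89010909, minus strand), Krtap4-1 from the latest stretch of chromosome 11 (chr11:99628240-99628389, minus strand), the basal epidermal keratin Krt5 (chr15:101712906-101713055, minus strand), the epidermal keratin Krt77 (chr15:101869706-101869855, minus strand) and the simple epithelial keratin Krt18 (chr15:102028066-102028215, plus strand).
Krtap22-2: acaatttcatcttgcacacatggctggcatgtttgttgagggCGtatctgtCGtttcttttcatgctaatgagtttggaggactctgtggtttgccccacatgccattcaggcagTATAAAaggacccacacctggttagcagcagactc
Krtap4-1: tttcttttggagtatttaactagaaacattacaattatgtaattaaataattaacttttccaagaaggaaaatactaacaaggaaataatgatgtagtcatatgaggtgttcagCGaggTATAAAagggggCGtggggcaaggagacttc
Krt5: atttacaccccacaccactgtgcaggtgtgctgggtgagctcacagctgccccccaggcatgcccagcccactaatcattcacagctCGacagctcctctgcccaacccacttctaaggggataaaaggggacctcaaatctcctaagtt
Krt77: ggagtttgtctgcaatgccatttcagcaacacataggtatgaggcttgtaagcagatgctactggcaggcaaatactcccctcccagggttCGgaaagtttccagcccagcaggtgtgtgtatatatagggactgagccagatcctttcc
Krt18: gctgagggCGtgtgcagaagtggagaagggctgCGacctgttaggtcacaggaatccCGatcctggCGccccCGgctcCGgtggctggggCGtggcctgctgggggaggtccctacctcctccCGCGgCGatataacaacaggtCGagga
The stretch upstream of Krt18 held 11 CG dinucleotides, against 2 at each keratin-associated gene and 1 at Krt5 and at Krt77. TATAAA lay 35 bases before the start of Krtap22-2 and 31 bases before that of Krtap4-1, and these letters were in none of the other 3 stretches.

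RefSeq promoter windows of 300 bases, 250 before to 50 after the start, were matched for 87 of the 109 members and for 16904 genes in all. TATAAA on either strand was in 61 of the 87 member windows (70.1%) and in 13.2% of all windows. It was in 42 of 51 windows of keratin-associated genes (82.4%) and 19 of 36 of keratins (52.8%). By location, it was in 33 of 41 windows on chromosome 11, 6 of 16 on chromosome 15 and 16 of 23 on chromosome 16. Member promoters were also poor in CG: the median was 3 CG dinucleotides per window against 14 over all genes, and 3 of 87 (3.45%) reached an observed-to-expected CG ratio of 0.6, against 49.8% of all windows. The simple epithelial keratins Krt7, with 21 CG, and Krt18, with 17, held the most. The GC box GGGCGG on either strand was in 2 of 87 windows, against 47.7% of all windows. Over the 4055 windows of genes classed late, by the limit given below, the median was also 3 CG dinucleotides. Of these late-gene windows, 24.2% reached the CG ratio of 0.6, 25.4% held GGGCGG and 24.9% held TATAAA. The low median CG count was therefore shared with late genes in general and was not particular to the members. TATAAA and GGGCGG cannot overlap in letters. Runs of at least 36 identical bases were shared with another member's window by 6 keratin-associated genes on chromosome 11 (Krtap4-6, Krtap4-8, Krtap4-9, Krtap4-13, Krtap31-1 and Krtap31-2) and 4 on chromosome 16 (Krtap19-1 with Krtap19-2, and Krtap6-1 with Krtap6-5), so these windows share sequence and are not separate cases. Across the 87 members, Spearman's rho between the CG count and control timing was 0.32, and across all 16904 genes it was 0.35. Within clusters it was 0.44 over 41 genes on chromosome 11, 0.23 over 16 on chromosome 15 and 0.30 over 23 on chromosome 16. These are correlations across genes, which share windows and base composition and are not independent replicates.

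**Figure D1:**
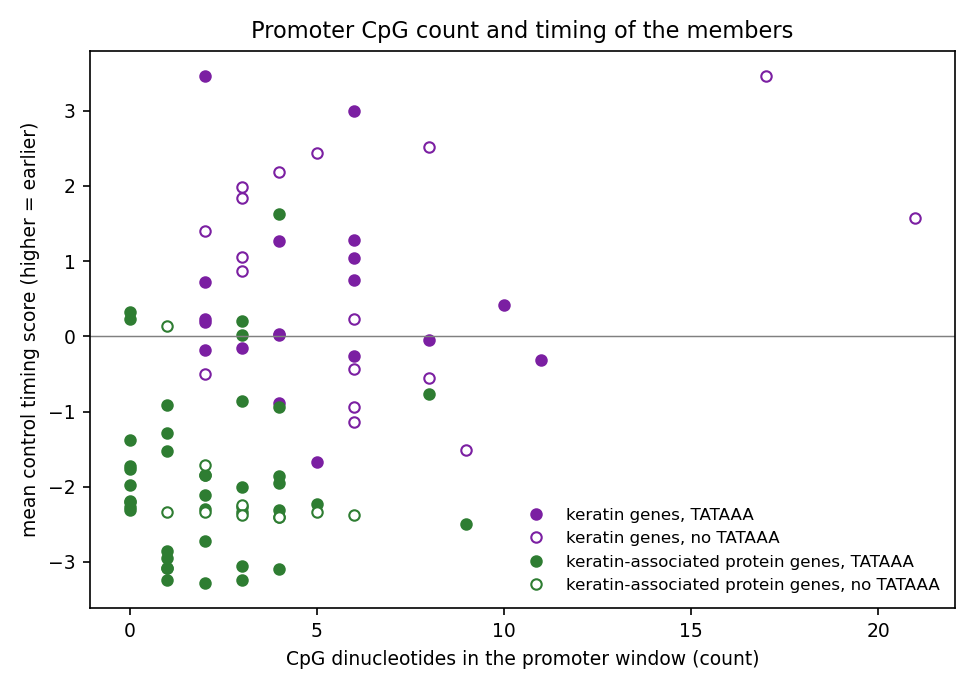
Mean control timing score (y axis, higher is earlier) against the number of CG dinucleotides in the 300-base promoter window (x axis) of 87 members, keratins in purple and keratin-associated genes in green, filled where the window holds TATAAA. Keratin-associated genes crowd the low-CG, late corner, and the rightmost points are Krt18 with 17 CG and Krt7 with 21.

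In control cells the 3 clusters held different places in the timing programme. The chromosome 15 keratins were the earliest, the chromosome 11 cluster was intermediate with a very late core, and the chromosome 16 keratin-associated genes were late throughout. The mean score over the windows of the chromosome 15 cluster was 0.724 and 0.528 in the 2 control profiles and 1.086 and 1.176 in the 2 auxin profiles. For chromosome 11 the means were -0.286 and -0.307 in control and -0.146 and 0.017 with auxin. For chromosome 16 they were -2.655 and -2.684 in control and -2.842 and -2.875 with auxin. In each of the 4 profiles the order was the same, chromosome 15 before 11 before 16. The within-profile difference averaged -1.06 ± 0.18 for chromosome 11 minus 15 (SD, n = 4), 2.58 ± 0.26 for chromosome 11 minus 16 and 3.64 ± 0.41 for chromosome 15 minus 16. Each had an exact two-sided sign-flip permutation p of 0.125, the smallest that 4 profiles allow.

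Both keratin clusters formed a valley of late replication between early flanks. In the 500 kb on either side of the chromosome 15 cluster the control mean was 2.96 (proximal) and 3.32 (distal), and beside the chromosome 11 cluster it was 3.07 and 3.54. The chromosome 16 cluster instead lay inside a late domain, with -3.03 on the proximal side and -0.18 on the distal side. Members near the edges of a valley were early and those in its centre late. Spearman's rho between a member's distance from the lowest window and its control score was 0.96 over the 50 members on chromosome 11. It was 0.95 over the 26 on chromosome 15 and 0.83 over the 24 on chromosome 16, which lay inside a late domain. Distance was measured from the lowest score itself, so a high rho was close to fixed in advance and is no test of a valley. It is a description across genes that share neighbouring windows.

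**Figure D2:**
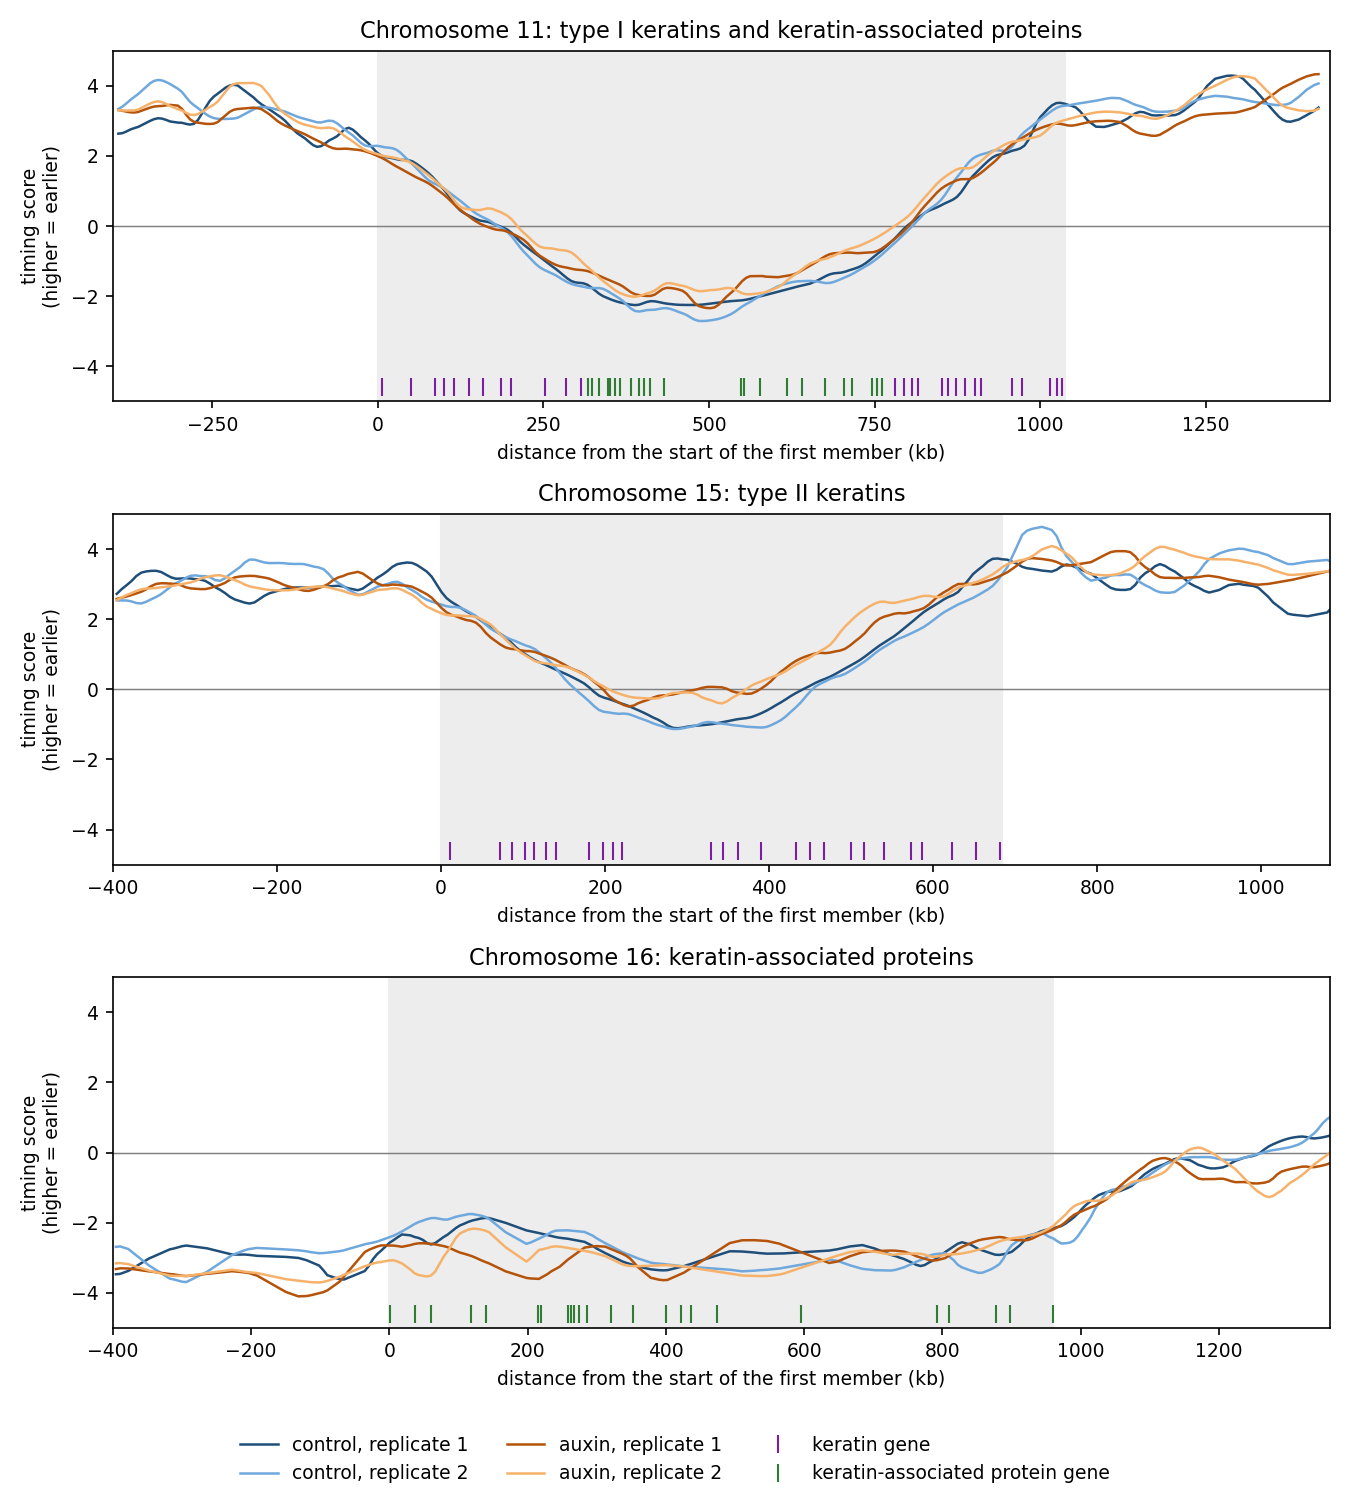
Timing score per 6-kb window (y axis, higher is earlier) against distance from the start of the first member in kb (x axis) for the chromosome 11, 15 and 16 clusters, 1 line per profile, with the span of the members shaded and each gene as a tick. On chromosome 15 both auxin lines run above both control lines through the valley floor and its distal slope, on chromosome 11 they do so more narrowly over the green keratin-associated ticks, and on chromosome 16 they lie lower near the proximal end.

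Scores were called early above 0.5, late below -0.5 and middle between. In control cells 34 members were early, 18 middle and 57 late, whereas 67.4% of all genes were early, 8.87% middle and 23.8% late. The median control score was -0.77 over members against 1.89 over all genes. The split ran along the families: the 53 keratins had a median of 0.76 and 31 of them were early, and the 56 keratin-associated genes had a median of -2.19 and 48 were late. On chromosome 16 all 24 were late, on chromosome 11 the counts were 16 early, 8 middle and 26 late, and on chromosome 15 they were 15, 5 and 6. With auxin, all 6 late genes of chromosome 15 fell in the middle class and 3 of its middle genes in the early class. On chromosome 11, 1 late gene was middle with auxin and 1 middle gene early, and on chromosome 16 all 24 were late in both groups.

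Of the 3 clusters, the type II keratins of chromosome 15 had the largest difference in mean score, and it was toward earlier replication. In the middle and distal parts of the valley, 10 neighbouring genes from Krt6b to Krt76 scored 0.79 to 1.08 higher with auxin, while Krt7, Krt8 and Krt18 toward the ends did not separate upward. This stretch was defined by the calls: the 10 are the members called by limma with a trended, robust variance, all of them earlier. In the fit with a plain variance, 0 of 109 members passed at an adjusted p under 0.05, against 0% of the 21074 genes tested. At an unadjusted p under 0.05 the plain fit held 32 of 109 members against 17.1% of genes, and the trended, robust fit called 10 of 109 members, all earlier, against 5.31% of all genes in either direction and 2.01% earlier.

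Among genes of the basal and stressed epidermis, Krt5, which pairs with Krt14 in basal keratinocytes, scored -0.85 and -1.04 in the control profiles and -0.10 and -0.13 with auxin. The difference was 0.83 ± 0.20 (SE), with a limma adjusted p of 0.173, and of 0.024 with a trended, robust variance. Both auxin values lay above both control values, and the replicates of a group were closer to each other than to the other group. The stress keratin Krt6b, induced in wounded epidermis, scored -0.99 and -0.94 in control and 0.07 and -0.32 with auxin, and its neighbour Krt6a -0.93 and -0.99 against 0.03 and -0.37. Their differences were 0.84 and 0.79, with trended, robust limma adjusted p of 0.029 and 0.037. In both genes auxin replicate 1 was the higher of the auxin pair and the groups stayed apart.

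The inner root sheath keratins, made in the layer that moulds the growing hair, lay next. Krt71 scored -0.68 and -1.08 in control and 0.03 and 0.23 with auxin. Krt72 scored -0.11 and -0.51 in control and 0.80 and 0.69 with auxin. Krt73 scored 0.11 and -0.06 in control and 0.98 and 0.92 with auxin. All 3 crossed from near or below 0 to above it in both auxin profiles, with differences of 1.01 ± 0.23, 1.06 ± 0.23 and 0.93 ± 0.20 (SE) and limma adjusted p of 0.172 each, or 0.017, 0.014 and 0.015 with a trended, robust variance. The other 4 inner root sheath genes measured, Krt25 to Krt28 on chromosome 11, differed by -0.07 to -0.03, and none of the 4 was called.

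The keratins of the upper epidermis followed on the distal slope of the valley. Krt2 scored 0.27 and 0.19 in control and 1.04 and 1.13 with auxin. Krt1, the partner of Krt10 in differentiating keratinocytes, scored 0.71 and 0.56 in control and 1.31 and 1.99 with auxin. Krt77 scored 0.93 and 0.80 in control and 1.61 and 2.27 with auxin, and Krt76, a keratin of oral epithelium, 1.33 and 1.21 against 2.07 and 2.49. The groups did not overlap at any of the 4, and at Krt1, Krt77 and Krt76 auxin replicate 2 was well above auxin replicate 1. The differences were 0.85, 1.01, 1.08 and 1.00, with trended, robust limma adjusted p of 0.017, 0.025, 0.020 and 0.019. Without auxin replicate 2 the difference at Krt1 was 0.67. Distal to Krt76, the mucosal keratin Krt4 scored 1.91 and 1.60 in control against 2.21 and 2.57 with auxin, a difference of 0.63 that was not called by either variance.

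The keratins at the ends of the cluster that were classed here as simple epithelial, Krt80 among them, were early in every profile. Krt8 scored 3.34 and 2.64 in control and 3.00 and 3.06 with auxin, and Krt18 3.72 and 3.20 against 3.23 and 3.43. At both, the auxin values lay between the control values, so the groups overlapped (differences of 0.03 and -0.13). At the proximal end Krt7 scored 1.58 and 1.57 in control and 1.28 and 1.56 with auxin, and Krt80 2.52 and 2.36 against 2.15 and 2.12. Krt80 was lower in both auxin profiles, with a difference of -0.30. At Krt7 the difference of -0.15 rested on auxin replicate 1 and was -0.0087 without it. Neither gene was called. Next to Krt7, the hair keratin Krt87 stood at 1.28 and 1.40 in control against 1.15 and 1.23 with auxin, a difference of -0.15. The gene Krt78, just proximal to Krt8, scored 2.74 and 2.30 in control and 2.84 and 2.80 with auxin (difference 0.30, and 0.083 without control replicate 2). The 6 type II hair keratins of the proximal slope (Krt81, Krt82, Krt83, Krt84, Krt86 and Krt87) had a median difference of 0.14 and none was called.

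**Figure D3:**
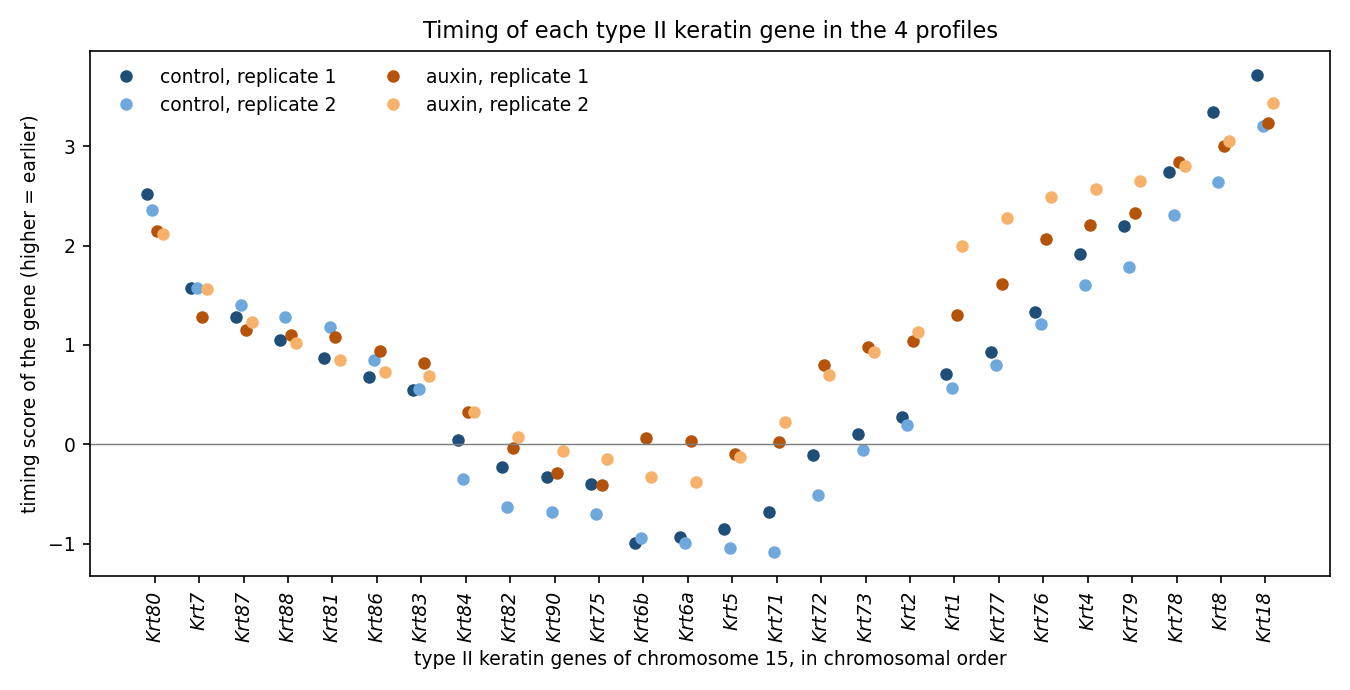
Timing score (y axis, higher is earlier) of each of the 26 chromosome 15 keratin genes in chromosomal order (x axis) in the 2 control (blue) and 2 auxin (orange) profiles. From Krt6b to Krt76 both auxin points stand above both control points, by 0.79 to 1.08 on average, while at Krt8 and Krt18 the points of the groups mix.

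With auxin the chromosome 15 valley was shallower and its stretch below 0, which takes in scores of the middle class, was shorter. The lowest window scored -1.11 and -1.13 in the control profiles and -0.49 and -0.40 with auxin. The unbroken stretch below 0 around the lowest window spanned 258.4 and 289.2 kb in control and 115.0 and 167.5 kb with auxin, and on average its distal edge shifted by -105 kb and its proximal edge by 27.3 kb, both toward the centre of the valley. Both auxin stretches were shorter than both control stretches. The lowest score, the width and each edge had an exact two-sided permutation p of 0.333, the smallest that 2 against 2 allows. The 10 called genes had a median difference of 0.97 and the other 16 of 0.14, of which 7 had both auxin values above both control values and 3 had both below. The 10 were picked by these same differences, so the gap between the medians follows from the choice. Since neighbours share windows, the 10 genes are 1 stretch of DNA and not 10 separate observations: the protein-coding gene Gm5414, no keratin by symbol, which lies in the same stretch proximal to Krt6b, differed by 0.95 (-1.09 in control, -0.14 with auxin).

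Bins of 50 kb gave the same picture with less sharing. Of 15 bins with at least 3 windows in the chromosome 15 cluster, 1 passed in limma with a plain variance, against 1.66% of the 42710 bins tested (0.637% called earlier). It spans 101750001 to 101800000 over Krt72 and Krt73, with -0.16 and -0.55 in control and 0.73 and 0.65 with auxin, a difference of 1.04 ± 0.22 (SE, limma adjusted p of 0.049). With any of the 4 profiles left out, 0 bins in the 3 clusters passed. With a trended, robust variance 6 adjoining bins were called earlier (101600001 to 101900000), against 5.17% of all bins. Each of these 6 bins differed by 0.85 or more, a limit chosen after their values were seen, as did 2.06% of all bins. Longer runs than this 300-kb one occurred elsewhere. Of 497 runs of bins earlier by 0.85 or more in the genome, 23 were at least as long, this run included, and 16 longer. The mean over the whole cluster was 0.626 ± 0.139 in control and 1.131 ± 0.064 with auxin (SD, n = 2), a difference of 0.50 (exact permutation p of 0.333, the smallest possible). The median difference per window was 0.508 between group means, and 0.202 between the control and 0.144 between the auxin replicates. Over all windows of the genome these medians were 0.287, 0.254 and 0.230.

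The chromosome 11 cluster was a deeper and wider valley whose keratin-associated core scored higher with auxin by a smaller amount. From the proximal end it holds 12 keratins (Krt222 to Krt40), then 23 keratin-associated genes, then 15 keratins (Krt33a to Krt42). The window mean over the keratin-associated block was -1.86 and -1.99 in control and -1.51 and -1.46 with auxin, a difference of 0.44, and all 23 genes of the block had both auxin values above both control values, as did 23.9% of all genes. These genes are neighbours in 1 stretch and not separate observations. The keratin blocks on each side differed by 0.11 (control 0.286) and 0.044 (control 1.60), and their profiles overlapped between the groups. The keratin-associated block was later than the proximal keratins by 2.04 ± 0.22 and than the distal keratins by 3.33 ± 0.26 (SD, n = 4), each with an exact sign-flip permutation p of 0.125, the smallest possible. The auxin difference in the block exceeded those of the flanking blocks by 0.33 and 0.40, with an exact permutation p of 0.333 for each, again the smallest possible.

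Within the block the largest differences were at Krtap31-1, Krtap31-2 and Krtap9-5, 3 neighbours on the distal slope. Krtap31-1 scored -1.43 and -1.63 in control and -0.85 and -0.93 with auxin. Krtap31-2 scored -1.30 and -1.46 in control and -0.76 and -0.69 with auxin. Krtap9-5 scored -1.22 and -1.35 in control and -0.77 and -0.62 with auxin. The groups were apart at all 3, by 0.63, 0.65 and 0.59, and none passed in limma (adjusted p of 0.217, 0.209 and 0.235, or 0.089, 0.071 and 0.095 with a trended, robust variance). The 50-kb bin over them, from 99900001, differed by 0.64 and was called with a trended, robust variance (limma adjusted p of 0.039) and not with a plain one (0.121). The promoters of Krtap31-1 and Krtap31-2 are among those that share 36 bases.

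The latest genes of the cluster were the hair genes at the valley floor. Krtap4-1, whose promoter is printed above, scored -2.24 and -2.44 in control and -1.97 and -2.0 with auxin. Krtap2-4 scored -2.24 and -2.35 against -1.89 and -2.01, and Krtap4-2 -2.21 and -2.42 against -1.99 and -1.96. Each was higher in both auxin profiles, by 0.34 to 0.36, and none was called. The lowest score of each profile did not separate the groups, at -2.26 and -2.71 in control and -2.34 and -2.02 with auxin. These minima lay at different windows, at 99618000 and 99720000 in control and at 99732000 and 99618000 with auxin. At a fixed place, the 50-kb bin from 99600001 scored -2.20 and -2.36 in control and -1.92 and -1.95 with auxin. In the bin from 99700001 the groups overlapped, at -2.23 and -2.68 in control and -2.26 and -1.83 with auxin. The stretch below 0 spanned 615.6 and 625.2 kb in control and 639.1 and 569.5 kb with auxin.

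Among the type I keratins, the genes at the distal end scored lower with auxin. The stress keratin Krt16 scored 3.40 and 3.26 in control and 2.89 and 2.82 with auxin. Its neighbour Krt17, also a stress keratin, scored 3.51 and 3.39 against 2.92 and 2.96, and Krt42 3.50 and 3.42 against 2.90 and 3.00. All 3 were lower in both auxin profiles, by 0.47, 0.51 and 0.51, though still early, and none was called (limma adjusted p of 0.296, 0.273 and 0.272). The basal partner of Krt5, Krt14, scored 2.26 and 2.63 in control and 2.52 and 2.46 with auxin, and the partner of Krt1, Krt10, 0.14 and 0.24 against 0.02 and 0.48. At both the groups overlapped, so of each epidermal pair the type II gene was among the called genes and the type I gene was not, and the difference between partners was not tested. The simple epithelial Krt19 (1.66 and 2.04 in control, 1.51 and 1.85 with auxin) and the intestinal Krt20 (-0.21 and -0.31 against -0.21 and 0.18) also overlapped. At the proximal end Krt222 stood at 2.03 and 2.27 in control against 1.96 and 2.02 with auxin.

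**Figure D4:**
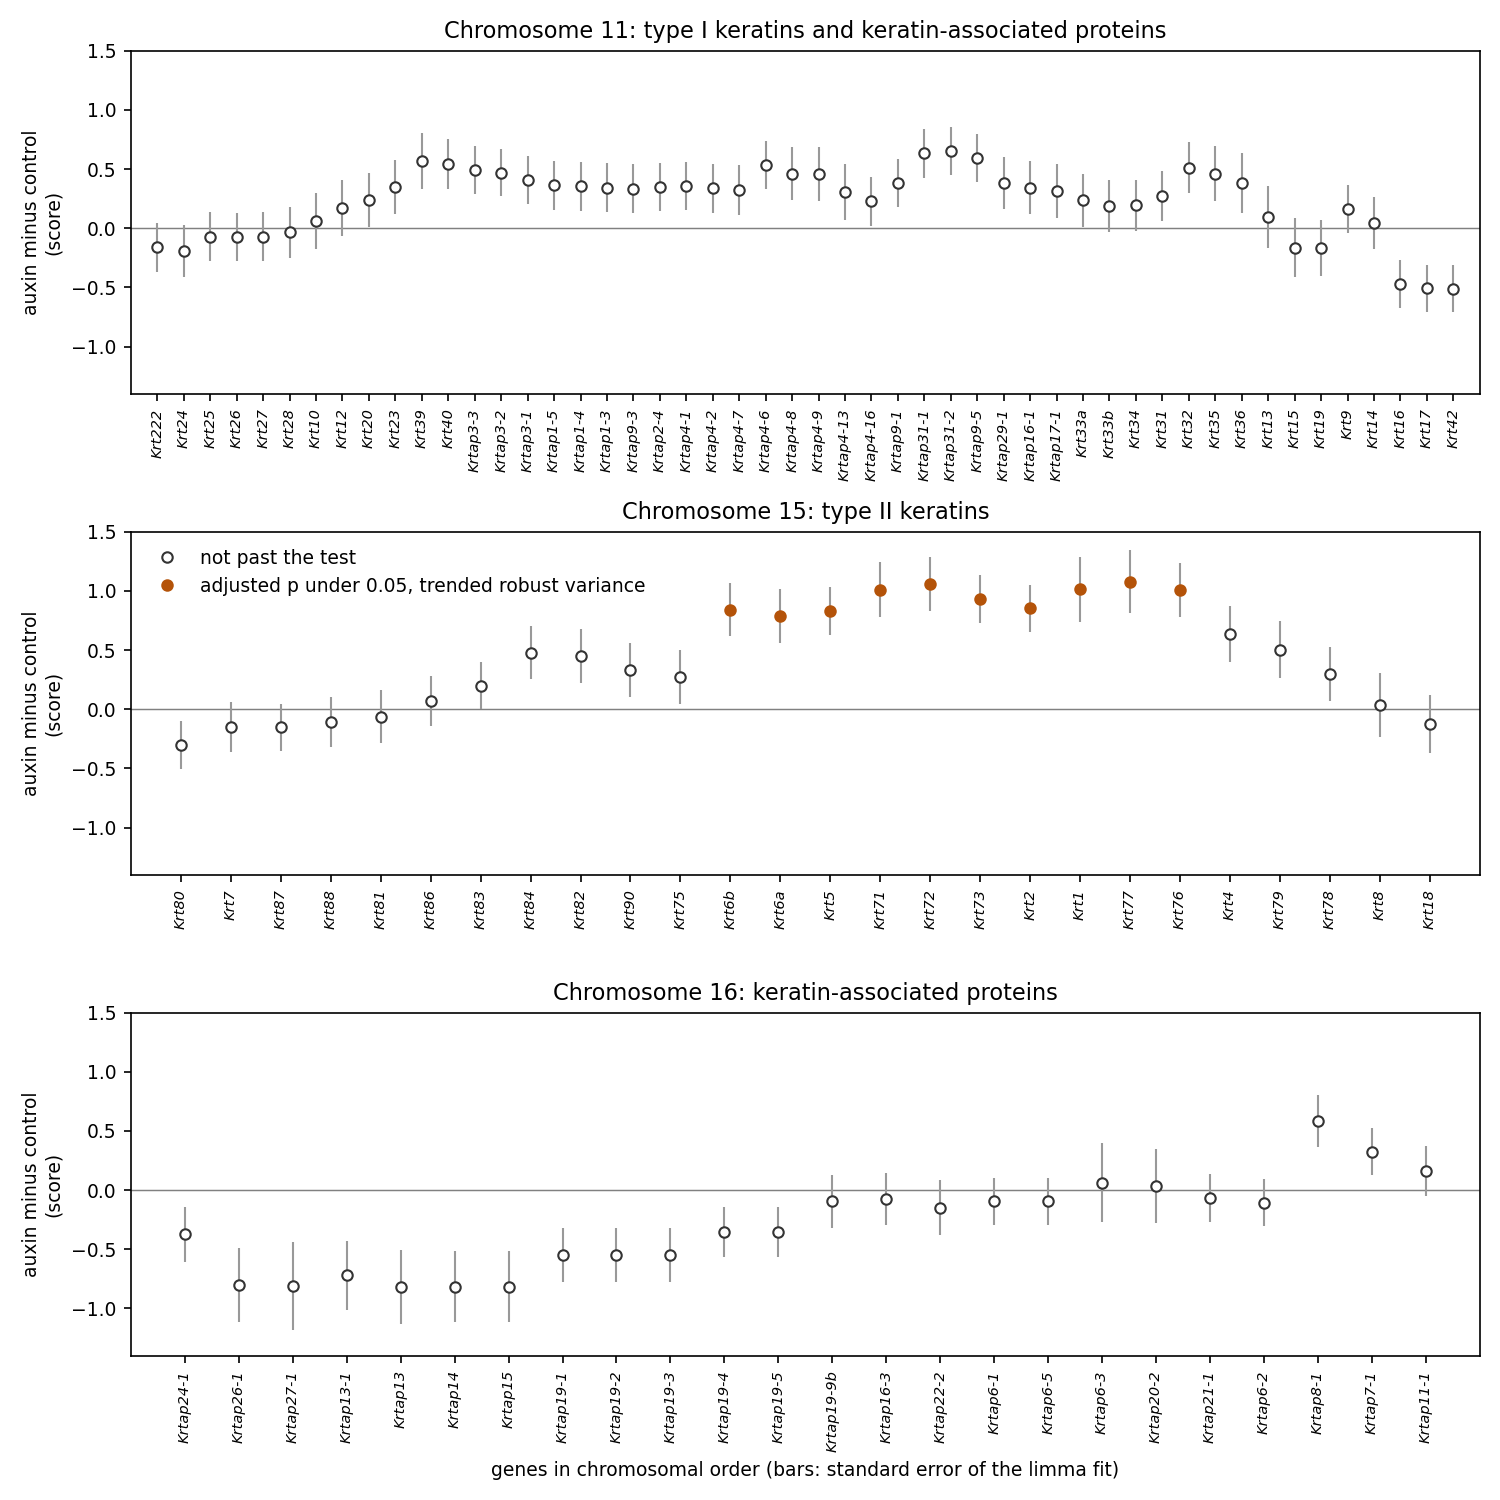
Auxin minus control timing score (y axis, points; bars are the standard error of the limma fit) of each member of the chromosome 11, 15 and 16 clusters in chromosomal order (x axis), filled where the adjusted p was under 0.05 with a trended, robust variance. The 10 filled points are all on chromosome 15, the chromosome 11 points form a low plateau above 0 over the keratin-associated genes, and the chromosome 16 points go from about -0.8 near the proximal end to above 0 at the distal end.

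The keratin-associated genes of chromosome 16 were the latest of the members, and their cluster mean was lower with auxin, whereas those of chromosomes 11 and 15 were higher. A lower score was not particular to the cluster. The mean of its proximal 500-kb flank was -3.03 in control and -3.41 with auxin, and that of its distal flank -0.18 and -0.55. The cluster mean was -2.669 ± 0.020 in control and -2.859 ± 0.024 with auxin (SD, n = 2), a difference of -0.19 with an exact permutation p of 0.333, the smallest possible. The effect on chromosome 15 exceeded that on chromosome 16 by 0.69, and that on chromosome 11 exceeded it by 0.42, each with the same exact permutation p of 0.333. The difference changed along the cluster. All 12 genes from Krtap24-1 to Krtap19-5 were lower with auxin (median -0.63, range -0.82 to -0.35). They hold 8 distinct values in 1 stretch and are not separate observations. Of the 12 from Krtap19-9b to Krtap11-1, 7 were lower and 5 higher (median -0.07, range -0.15 to 0.58, 11 distinct values). The break between these parts was not fixed beforehand and falls where the larger negative differences end, so the gap between the medians follows from the choice. Coverage was thinner here: windows filled 56.8% of the 6-kb grid in the cluster, against 97.8% on chromosome 11 and 100% on chromosome 15, with a largest gap of 66 kb. Only 14 of the 24 genes overlapped a window, the others took the nearest within 21862 bases, and the 24 genes held 19 distinct values.

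At the proximal end, Krtap24-1 scored -2.57 and -2.41 in control and -2.65 and -3.08 with auxin, and Krtap26-1 -2.41 and -2.04 against -2.61 and -3.44. Krtap27-1 scored -2.62 and -1.87 in control and -2.60 and -3.51 with auxin. At Krtap26-1 and Krtap27-1 auxin replicate 2 was far below the rest, and at Krtap27-1 the groups overlapped. The differences of -0.80 and -0.81 became -0.38 and -0.36 without auxin replicate 2. Next, Krtap13-1 scored -1.94 and -1.75 in control and -2.96 and -2.17 with auxin, and Krtap13 -1.87 and -1.83 against -3.12 and -2.22. Krtap14 and Krtap15, which share a window, scored -2.30 and -2.46 against -3.60 and -2.78. At these 4 genes the low profile was auxin replicate 1 instead, and the differences of -0.72, -0.82 and -0.82 for Krtap13-1, Krtap13 and the shared window became -0.33, -0.37 and -0.40 without it. None of these genes was called by either variance. The gene with the lowest control mean, Krtap22-2, had -3.35 and -3.19 in control and -3.63 and -3.21 with auxin. Krtap21-1, among the 3 latest genes of the cluster that overlap a window, had -3.01 and -2.89 against -3.07 and -2.97. Several genes that took the nearest window, such as Krtap6-1, were later than Krtap21-1.

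Toward the distal end Krtap8-1 scored -2.91 and -3.26 in control and -2.43 and -2.58 with auxin, and Krtap7-1 -2.85 and -2.73 against -2.47 and -2.46. These were the only 2 genes of the cluster with both auxin values above both control values, by 0.58 and 0.32, and neither was called. Krtap11-1, the last, scored -2.16 and -2.45 against -2.19 and -2.10. On this chromosome the median difference per window was 0.268 between group means and 0.251 and 0.272 between replicates of the control and auxin groups. The cluster means of the groups did not overlap. Over all windows of the genome the medians were 0.287 between group means, and 0.254 and 0.230 between replicates. A group mean averages 2 profiles and a replicate is 1 profile, so the sizes of these 2 kinds of difference are not directly comparable. On chromosome 11 the median per window was 0.335 between group means, against 0.160 and 0.236 between replicates. Of 17 bins on chromosome 16 and 22 on chromosome 11, 0 passed in limma with a plain variance (6 and 4 at an unadjusted p under 0.05, against 21.7% of bins), and 0 and 1 with a trended, robust one.

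The members outside these clusters were few. The 5 Krtap5 genes of chromosome 7, a family of cysteine-rich hair proteins, were middle in control and early with auxin, with a block mean of 0.27 and 0.01 in control and 0.85 and 0.52 with auxin. Krtap5-5 scored 0.22 and -0.18 against 0.78 and 0.54, a difference of 0.64 that was not called (limma adjusted p of 0.247). Krtap12-1 on chromosome 10, the earliest member outside the clusters, scored 2.30 and 2.02 in control against 2.07 and 2.45 with auxin. Krtap28-13 on chromosome 1, the latest of them, scored -0.85 and -0.98 against -1.11 and -1.74, a difference of -0.51 with the groups apart, which was -0.20 without auxin replicate 2.

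Over all 109 members, both auxin values lay above both control values at 56, against 23.9% of all genes, and below at 23, against 25.9%. The higher counts were 30 of 50 on chromosome 11, 17 of 26 on chromosome 15 and 2 of 24 on chromosome 16, and the lower counts 5, 3 and 14. The median member difference was 0.27, and that over all genes was 0 to 2 decimals. By role, limma with a trended, robust variance called 4 of 8 epidermal, 3 of 7 inner root sheath and 2 of 4 stress keratins. Among the 13 others it called Krt76. That fit called 5.31% of all genes in either direction and 2.01% earlier. With a plain variance, 0 members were called in each role. The called keratins all lie in the same stretch of chromosome 15, so their counts by role are not separate observations. None of 6 simple epithelial, 9 type I hair, 6 type II hair and 56 keratin-associated genes was called with either variance. All 9 type I hair keratins scored higher with auxin on average (median 0.38). Of the 6 keratins classed here as simple epithelial, Krt80 among them, 2 did (median -0.14). Since these roles follow position in the clusters, role and position cannot be told apart here. Only 18 members held at least 3 windows, and of these limma with a trended, robust variance called 5 (Krt71, Krt72, Krt73, Krt77 and Krt76, all earlier), against 3.81% of the 12979 such genes called earlier.

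In the authors' deposited tables of regions that changed timing, 0 of 63 early-to-late and 0 of 22 late-to-early regions overlapped any keratin cluster. The nearest early-to-late region to the chromosome 15 cluster lay 6662 kb away, and the nearest late-to-early region 42632 kb away. These lists rest on the authors' own cut and not on the tests used here.

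Other genes of keratin biology, outside the member clusters, were counted by list; the anchoring gene Jup lies in the distal flank of the chromosome 11 cluster. Of 15 other intermediate filament genes, 0 passed in limma with either variance, and the median difference was 0.08. At an unadjusted limma p under 0.05, 3 were earlier and 0 later. Over all genes 17.1% passed that limit in either direction, the share to hold beside the lists below too. The largest difference among these filament genes was at the lamin gene Lmnb2, with 0.90. Of 15 genes that anchor keratins or form the cornified layer, 0 passed with either variance (2 earlier and 2 later unadjusted), with a median of -0.10. The lowest, at the filaggrin gene Flg, was -1.01. Of 10 regulators of epidermis and hair, 0 passed with a plain variance (0 earlier and 1 later unadjusted), with a median of 0.07. With a trended, robust one, the Wnt effector gene Lef1 was called later, from 0.34 in control to -1.06 with auxin. That fit called 5.31% of all genes in either direction.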

How the data were processed

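Repli-seq measured replication timing in 4 profiles, 2 with auxin and 2 without, each from 2 libraries, of early and of late S phase. The authors deposited a timing score per window of 6 kb for each profile, quantile normalized per the file headers (the sorted columns are identical). Bowtie2, SAMtools, bedtools and mm10 are named in the submitters' processing notes, with no version, log base or depth. For each gene the score was averaged over its windows, or taken from the nearest within 50 kb. Auxin was compared with control over 21074 genes, and over 42710 bins of 50 kb with at least 3 windows, by limma 3.58.1 in R 4.3.3 with 2 residual degrees of freedom and Benjamini-Hochberg adjustment. Single values were compared by exact permutation over profiles. The fits were tested on simulated data. Promoters came from RefSeq.

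The rule for members used symbols and no timing value. That rule, the roles, lists, tests and the 3-window minimum were still chosen with earlier results of these data known. Genes named are, per cluster, the first and last, the 3 earliest, the 3 latest and the 3 with the largest difference in each direction among genes that overlap a window, all called genes, the simple epithelial keratins and the pairs Krt5 with Krt14 and Krt1 with Krt10. Outside the clusters they are the earliest, the latest and the most changed member. Krt4, Krt25 to Krt28 and Gm5414 were added after their values were seen. Alternatives were a trended, robust variance, other gene and bin summaries, the replicate number as a block and each profile left out. Sulfur and glycine-tyrosine classes of keratin-associated proteins were not used here.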

Additional observations from a re-analysis of the deposited data

How the results depend on the processing

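With 2 profiles a group, no exact test of a cluster could fall below 0.333, and calls depend on how the variance is shared. The count of called members was 0 in the plain fit, 0 with each profile left out and 0 with a replicate block, 10 with a trended, robust variance and 5 of 18 with at least 3 windows and that variance, the last chosen after seeing the data. The count of called bins in the 3 clusters was 1 in the plain fit, which called 1.66% of all bins. It was 7 with a trended, robust variance, which called 10.8% of all bins. The count was 6 with a replicate block, 0 when bins with fewer than 3 windows were included and 2 in 100-kb bins. For these last settings the share over all bins is not given here, so their counts cannot be set against the genome. Replicate numbers are only shared numbers: the correlation of same-numbered deviations was 0.038 over bins and 0.105 over genes. The block moved the bin count; the cause of these changes was not tested.

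The cluster differences kept their sign in every alternative run, with ranges over the profile left out of 0.15 to 0.31 (chromosome 11), 0.41 to 0.60 (chromosome 15) and -0.21 to -0.17 (chromosome 16). Control levels depended on the summary: for chromosome 11 they were -0.72 by the window median, -0.32 over member genes and 0.16 with 100 kb added on each side, for chromosome 15 0.46 by the median and 1.18 with 100 kb added, and for chromosome 16 -2.74, -2.62 and -2.55. Signs turned for small differences. Leaving out 1 profile gave ranges of -0.091 to 0.29 at Krtap12-1 (also -0.042), -0.17 to 0.29 at Krt10, -0.36 to 0.023 at Krt19, -0.14 to 0.23 at Krt14, -0.32 to 0.38 at Krt8, -0.39 to 0.13 at Krt18 and -0.36 to 0.061 at Krtap22-2. Windows within 50 kb of the midpoint gave 0.065 at Krt19, -0.13 at Krt14 and 0.11 at Krtap21-1. The distal edge of the chromosome 16 late stretch moved by 9.91 kb at a limit of 0 and by -0.85 kb at -0.5, a limit added after seeing the data that the chromosome 15 valley did not reach with auxin.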

Other observations

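Beyond the distal end of the chromosome 16 cluster, outside the members, scores over the gene Tiam1 were lower with auxin, whereas the 3 bins between it and the cluster were not. Tiam1, which encodes an activator of the GTPase Rac and spans 89787111 to 90145600, scored 0.85 and 0.96 in control and 0.03 and 0.21 with auxin. Both auxin profiles lay below both control profiles, with a difference of -0.79 ± 0.20 (SE, limma adjusted p of 0.176, and of 0.023 with a trended, robust variance). The bin from 90100001, at the distal end of Tiam1, passed in limma with a plain variance, from 2.60 and 2.59 in control to 1.54 and 1.60 with auxin (adjusted p of 0.045). Tiam1 was chosen after its values were seen.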
